A study of Arabidopsis thaliana with 12 samples.

Results

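The *PLETHORA* genes of *Arabidopsis thaliana* were followed through H3K27me3 ChIP-seq in 4 genotypes. The set was given by name and holds 6 of the 37899 genes annotated on chromosomes 1 to 5, namely *PLT1* (AT3G20840), *PLT2* (AT1G51190), *PLT3* (AT5G10510, also *AIL6*), *BBM* (AT5G17430), *PLT5* (AT5G57390, also *AIL5*) and *PLT7* (AT5G65510, also *AIL7*). The naming rule uses no measured value, although the set was proposed with earlier results of these data known. Chromatin came from whole 14-day-old seedlings grown on 1/2 MS medium at 22 °C in 16 h light and 8 h dark, and was precipitated with an antibody against trimethylated lysine 27 of histone H3. The groups were the double mutant *brm-1 clf-29*, the single mutants *brm-1* and *clf-29*, and Col, which is the wild type and the background of all the mutants. *brm-1* and *clf-29* are T-DNA insertion alleles. Each genotype had 2 ChIP libraries that the study describes as biological replicates and 1 unreplicated input library of the sheared chromatin before precipitation.

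PLETHORA proteins are transcription factors with paired AP2 DNA-binding domains. They form gradients at the root tip that follow auxin, hold the root stem cell niche in place, and act with partly shared roles in lateral root initiation, embryo formation and leaf positioning at the shoot apex. H3K27me3 is written by Polycomb repressive complex 2, in which CLF and its homologue SWN are the methyltransferases of the seedling, and marks genes that are silent in most cells. BRM is the ATPase of a SWI/SNF chromatin remodelling complex. A whole seedling holds very few root stem cells, and the genes are normally off in most of its other cells.

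The ChIP libraries contained 3901085 to 7277025 reads and the inputs 5498751 to 6342078, and 2112103 to 3654258 ChIP reads were kept after 1 read per position and strand was taken. The read names of all libraries carry 1 flow cell. Levels are reads in the gene per 1000000 kept reads (RPM). Enriched regions shared by both replicates covered 17.0 Mb in *brm-1 clf-29*, 21.8 Mb in *brm-1*, 15.7 Mb in *clf-29* and 19.9 Mb in Col. Of 2 control loci, the Polycomb target *AG* had 194 and 250.3 RPM in the double mutant and 326 and 304 RPM in Col, whereas *ACTIN2/7* had at most 6.55 RPM in any ChIP library. RPM sums to a fixed total and therefore measures where the mark lay, not how much there was. Reads outside all regions were relatively more frequent in Col. The size factors made from those reads were 0.870 and 0.758 in *brm-1 clf-29*, 0.949 and 0.675 in *brm-1*, 0.932 and 0.822 in *clf-29*, and 1.74 and 1.77 in Col. This offset touches every comparison with Col below, and its part in them was not tested.

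All 6 genes overlapped an enriched region in every genotype. Per kilobase of gene, the order of the levels in Col was *BBM* with 53.2 and 52.8 RPM, *PLT2* with 49.7 and 47.2 RPM, *PLT1* with 45.9 and 47.7 RPM, *PLT5* with 40.1 and 37.4 RPM, *PLT3* with 19.8 and 20.0 RPM, and *PLT7* with 15.7 and 13.6 RPM. The libraries of *PLT1* and *PLT2* overlapped, and the other neighbours in this order did not. Among the 8746 genes that overlapped a region in Col, *BBM* stood at percentile 92.7 of density, *PLT2* at percentile 88.5, *PLT1* at percentile 86.7 and *PLT5* at percentile 75.9. *PLT3* stood at percentile 35.2 and *PLT7* at percentile 20.0. ChIP over input in Col was 6.41 at *PLT2*, 5.91 at *BBM*, 5.53 at *PLT1*, 5.08 at *PLT5*, 2.58 at *PLT3* and 1.91 at *PLT7*. The input itself lay between 24.7 and 46.9 RPM over the 6 genes and 4 genotypes. The 4 denser genes thus stood apart from *PLT3* and *PLT7*, the 2 whose region covered only the first part of the gene.

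**Figure D1:**
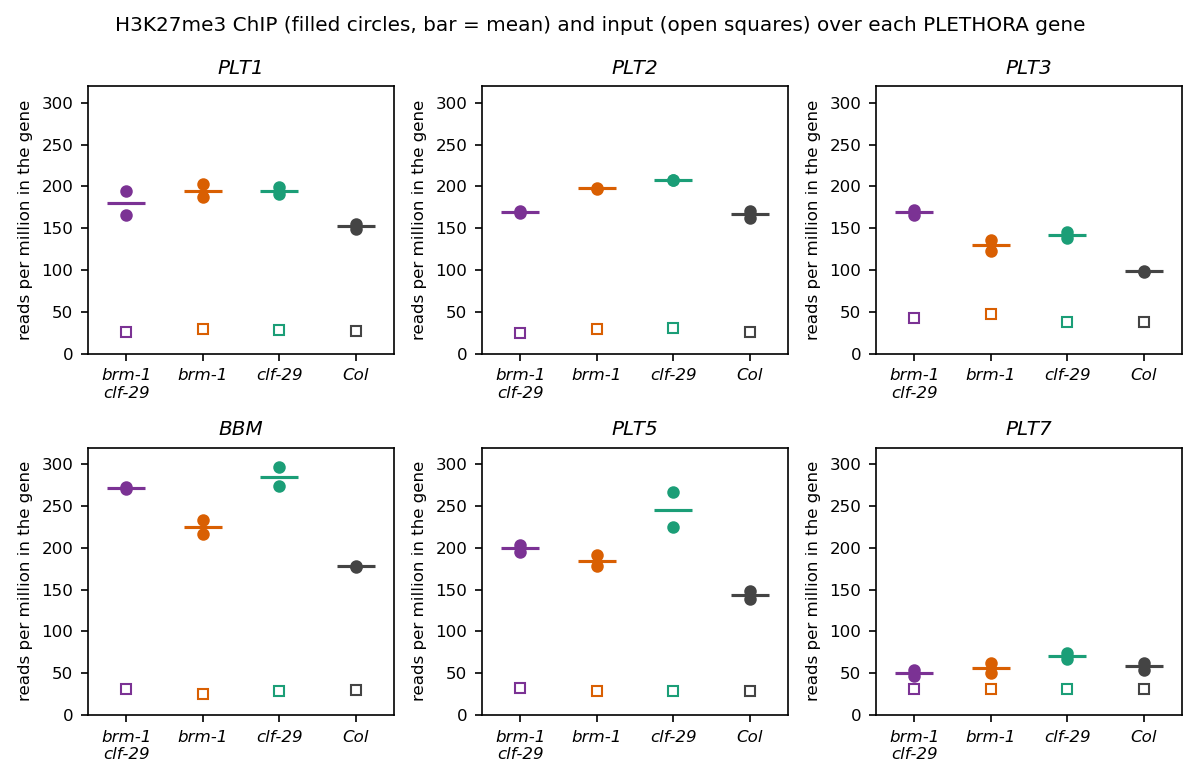
Reads per 1000000 over each *PLETHORA* gene (y axis, RPM) in *brm-1 clf-29*, both single mutants and Col (x axis), with 1 filled circle per ChIP replicate, a bar at the mean and an open square for the single input. Every mutant library of *PLT1*, *PLT3*, *BBM* and *PLT5* lies above both Col libraries, and *PLT7* has the lowest ChIP over input in every genotype (1.60 to 2.29).

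*PLT1*, a main regulator of the root stem cell niche, had 195 and 166 RPM in *brm-1 clf-29* seedlings, 203 and 187 RPM in *brm-1*, 199 and 190.3 RPM in *clf-29*, and 149 and 155 RPM in Col. Its mutant libraries were all above those of Col but overlapped one another. *PLT2*, which acts redundantly with *PLT1*, had 170.5 and 169 RPM in *brm-1 clf-29* seedlings, 197 and 198 RPM in *brm-1*, 208 and 207 RPM in *clf-29*, and 171 and 163 RPM in Col. Both single mutants were above Col, whereas the double mutant lay inside the range of the Col replicates.

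*PLT3*, which acts in both the root and the shoot apex, had 166 and 172 RPM in *brm-1 clf-29* seedlings, 136 and 123 RPM in *brm-1*, 138 and 145 RPM in *clf-29*, and 97.7 and 98.7 RPM in Col. No 2 genotypes overlapped, although the nearest libraries of *brm-1* and *clf-29* were almost equal. *BBM*, known for its ability to induce embryos when expressed ectopically, had 271 and 273 RPM in *brm-1 clf-29* seedlings, 216 and 233 RPM in *brm-1*, 274 and 296 RPM in *clf-29*, and 178 and 177 RPM in Col. Col was lowest, *brm-1* intermediate, and the 2 genotypes that carry *clf-29* were highest and close to each other.

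*PLT5*, which acts with *PLT3* and *PLT7* in lateral root formation and leaf positioning, had 204 and 195 RPM in *brm-1 clf-29* seedlings, 191 and 178 RPM in *brm-1*, 224 and 267 RPM in *clf-29*, and 149 and 139 RPM in Col. Here *clf-29* was above the double mutant, and no genotypes overlapped. *PLT7* had 53.6 and 46.9 RPM in *brm-1 clf-29* seedlings, 62.0 and 50.7 RPM in *brm-1*, 74.7 and 67.2 RPM in *clf-29*, and 62.7 and 54.3 RPM in Col. The *clf-29* libraries lay above and the double-mutant libraries below those of Col, each by a small margin.

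Changes were tested with limma on log2(RPM + 1) over the 32061 genes with enough reads, which included all 6 members. A call required a change above 2-fold and an adjusted p (Benjamini-Hochberg) below 0.05. In *brm-1* against Col, 0 of 6 were called, against 38.8% of all tested genes called in either direction. These were 12442 genes, whereas 3082 were higher by the adjusted p alone, so that most of the calls were lower than Col. No such share was taken over the marked genes alone, and the 38.8% does not measure how stable the members were. By the adjusted p alone 5 of 6 were higher in *brm-1*, and 5 of 6 had an unadjusted p under 0.05, whereas 9.61% of all tested genes and 29.5% of the tested genes marked in any genotype were higher by that rule. The log2 changes were 0.36 at *PLT1* (adjusted p = 0.00409), 0.24 at *PLT2* (0.0161), 0.39 at *PLT3* (0.00311), 0.33 at *BBM* (0.00214) and 0.35 at *PLT5* (0.00405), with standard errors of 0.07 to 0.09 and limma-adjusted p-values. *PLT7* had a log2 change of -0.06 with an SE of 0.14 (limma-adjusted p = 0.749). Genes marked in Col had a median log2 change of 0.24 in this comparison, and all tested genes one of -0.75. Against the marked genes the members ranged from percentile 15.1 (*PLT7*) to percentile 78.0 (*PLT3*). The higher level at 5 of the genes was thus within the range of other marked genes.

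In *clf-29* against Col, again 0 of 6 were called, against 38.1% of all tested genes in either direction. Most of those 12216 calls were lower than Col, since 4517 genes were higher by the adjusted p alone. By the adjusted p alone 5 of 6 were higher in *clf-29* and 5 of 6 had an unadjusted p under 0.05, and the background was 14.1% of all tested genes and 43.2% of the marked ones. *PLT5* had the largest log2 change of 0.76 (limma-adjusted p = 2.5e-07), followed by *BBM* with 0.68 (1.08e-07) and *PLT3* with 0.52 (0.000114). The log2 change was 0.35 at *PLT1* (limma-adjusted p = 0.00277), 0.31 at *PLT2* (0.00284) and 0.28 at *PLT7* (0.0976). The median of the marked genes was 0.31. With RPM no member was lower over the whole gene in *clf-29*. With TMM factors over the genes marked in Col, *PLT2* was at -0.015 and *PLT7* at -0.050. *PLT1*, *PLT2* and *PLT7* were near the middle of the marked genes, at percentiles 52.2, 50.4 and 48.7 with RPM. *BBM* and *PLT5* were at percentiles 68.3 and 72.8.

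In *brm-1 clf-29* against Col, 0 of 6 were called, against 45.2% of all tested genes in either direction. Most of those 14499 calls were lower than Col, since 4802 genes were higher by the adjusted p alone. By the adjusted p alone 4 of 6 were higher in the double mutant and 4 of 6 had an unadjusted p under 0.05, with a background of 15.0% of all tested genes and 45.0% of the marked ones. *PLT3* had the largest log2 change of 0.77 (limma-adjusted p = 5.22e-07), before *BBM* with 0.61 (5.93e-07), *PLT5* with 0.47 (0.000184) and *PLT1* with 0.24 (0.0247). *PLT2* had a log2 change of 0.02 (limma-adjusted p = 0.798) and *PLT7* one of -0.21 (0.183). The median of the marked genes was 0.30, and the members lay between percentile 28.5 (*PLT7*) and percentile 74.4 (*PLT3*). The 3 comparisons share the Col libraries. With the reads outside all regions set equal, the changes of the members were 0.88 to 1.87 in *brm-1 clf-29*, 1.05 to 1.51 in *brm-1* and 1.26 to 1.76 in *clf-29*, and 5, 6 and 6 of 6 were called higher than Col. With TMM factors over the genes marked in Col they were -0.53 to 0.46, -0.30 to 0.15 and -0.05 to 0.43 for the same 3 genotypes, and 0 of 6 were called. The direction at *PLT1*, *PLT2* and *PLT7* therefore depended on the scaling in at least 1 of these comparisons, whereas *PLT3*, *BBM* and *PLT5* were above Col under both in *clf-29* and in *brm-1 clf-29*.

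**Figure D2:**
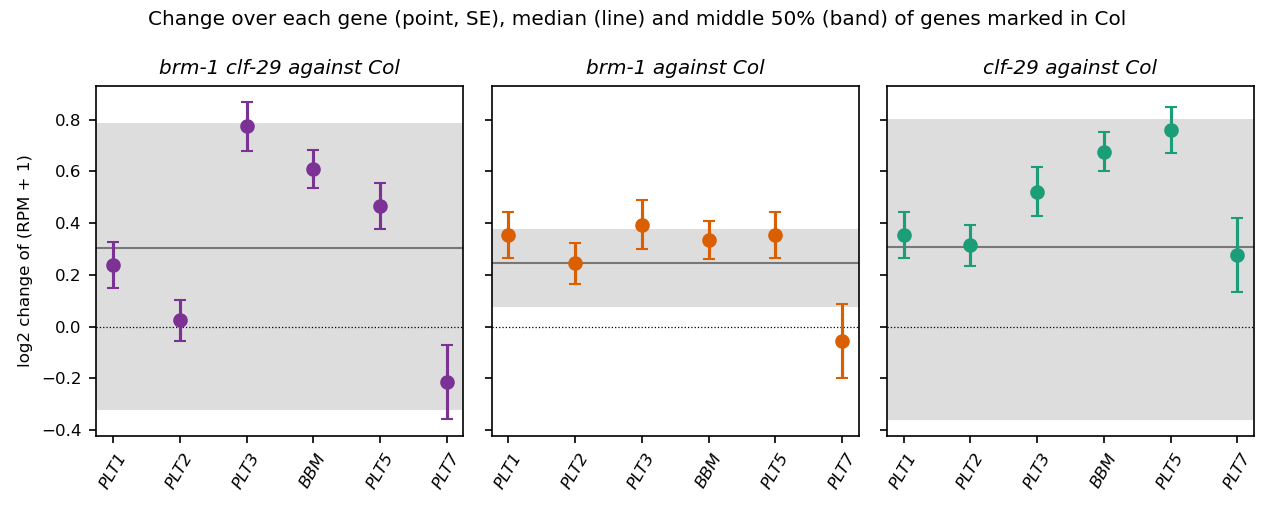
Log2 change of RPM + 1 over each *PLETHORA* gene (points, error bars are limma standard errors) in *brm-1 clf-29*, *brm-1* and *clf-29* against Col, 1 panel per mutant. The line is the median of the genes marked in Col (0.30, 0.24 and 0.31 in the same order) and the band spans their middle 50%; *PLT7* in *brm-1* and in *brm-1 clf-29* lies below 0, and *PLT5* and *BBM* in *clf-29* and *PLT3* in *brm-1 clf-29* lie highest.

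The effect of losing CLF in plants that already lack BRM was read from *brm-1 clf-29* against *brm-1*. Here 0 of 6 were called, against 6.58% of all tested genes, and 3 of 6 had an unadjusted p under 0.05. By the adjusted p alone 2 of 6 were higher in the double mutant, with a background of 10.2% of all tested genes and 29.7% of the marked ones. These were *PLT3*, with a log2 change of 0.38 (limma-adjusted p = 0.00433), and *BBM*, with 0.27 (0.0093). *PLT2* had a log2 change of -0.22 (limma-adjusted p = 0.0551). In *brm-1 clf-29* against *clf-29*, 0 of 6 were called, against 0.352% of all tested genes, and 0 of 6 were higher by the limma-adjusted p alone, with a background of 0.571% and, among marked genes, 1.61%. At an unadjusted p under 0.05 there were 4 of 6. The log2 changes were 0.25 at *PLT3*, -0.07 at *BBM*, -0.11 at *PLT1*, -0.29 at *PLT2* and *PLT5*, and -0.49 at *PLT7*. *PLT7* stood at percentile 3.28 of the marked genes in this comparison and *PLT3* at percentile 83.8.

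The effect of *brm-1* in the *clf-29* background was then set against its effect in plants with CLF, as the interaction term of the fit. It was below 0 for all 6 genes and had an adjusted p under 0.05 for 4 of 6, with a background of 2.62% of all tested genes and 8.11% of the marked ones. *PLT5* had a difference of -0.65 with an SE of 0.13 (limma-adjusted p = 0.0119), where the log2 change due to *brm-1* was -0.29 in *clf-29* plants and 0.35 in plants with CLF. The differences were -0.54 at *PLT2* (limma-adjusted p = 0.0167), -0.40 at *BBM* (0.0289) and -0.47 at *PLT1* (0.0306). *PLT7* had -0.43 (limma-adjusted p = 0.133) and *PLT3* -0.14 (0.452). The median of the genes marked in Col was -0.25, whereas that of all tested genes was 0.59. With the reads outside all regions set equal, the median of all tested genes was -0.26. The shares of 2.62% and 8.11% were taken with RPM only, and the part of the Col offset in them was not tested. The 4 calls were at 0 of 6 when the fit omitted Col replicate 1, Col replicate 2, *brm-1 clf-29* replicate 1, *brm-1 clf-29* replicate 2 or *brm-1* replicate 2, and also when only the first 1000 bp of each gene was used. The interaction calls thus rest on having every one of these libraries, whereas the differences at the 4 genes stayed below 0. With 1 library left out they were -0.77 to -0.52 at *PLT5*, -0.57 to -0.50 at *PLT2*, -0.46 to -0.35 at *BBM* and -0.58 to -0.35 at *PLT1*. The size of the differences and the number of calls depended on the scaling. The differences over the 6 genes were -1.47 to -0.96 with median-of-ratios factors and -1.66 to -1.15 with the reads outside all regions set equal. In either case 6 of 6 had an adjusted p under 0.05. With TMM factors over the genes marked in Col they were -0.39 to 0.11, and 1 of 6 had such a p. With the ratio to input they were -0.85 to -0.0024, and 2 of 6 had such a p.

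The extent of the enriched regions was compared next, with gaps of up to 600 bp bridged. At *PLT1* the shared region was 10800 bp long in *brm-1 clf-29*, 19400 bp in *brm-1*, 10600 bp in *clf-29* and 18400 bp in Col. It reached 6443 bp upstream of the gene in *brm-1 clf-29*, 14443 bp in *brm-1*, 6243 bp in *clf-29* and 13843 bp in Col. Both genotypes with *clf-29* had lost the distal part of a long upstream domain, and *brm-1* had kept it. The edges of the 2 replicates of a genotype differed by at most 200 bp at this locus. When gaps of only up to 200 bp were bridged, the *brm-1* region was 13600 bp long, and still longer than in both genotypes with *clf-29*. The region also contained the short gene AT3G20850 just downstream of *PLT1*, and in *brm-1* it reached 442 bp into *UCNL* at the far end.

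At *PLT2* the region was 8800 bp long in *brm-1 clf-29*, 13000 bp in *brm-1*, 9000 bp in *clf-29* and 13200 bp in Col. The lost part was on the downstream side. The region ended 3182 bp after the gene in *brm-1* and in Col, whereas in both *brm-1 clf-29* and *clf-29* it ended inside the gene and covered 87.9% of it. This contrast in the end point needed the bridging. With gaps of only up to 200 bp the region was 6000 bp long in *brm-1 clf-29*, 9600 bp in *brm-1*, 9000 bp in *clf-29* and 10000 bp in Col, and it ended inside the gene in every genotype. At *PLT3* the region was 7000 bp long in *brm-1 clf-29*, 8800 bp in *brm-1*, 6800 bp in *clf-29* and 9800 bp in Col. It extended 5000, 6400, 4800 and 7800 bp upstream in the same genotypes and covered only 40.6% to 48.8% of the gene. With gaps of up to 200 bp the lengths were 7000 bp in *brm-1 clf-29*, 8800 bp in *brm-1*, 6600 bp in *clf-29* and 7200 bp in Col, so that most of the difference from Col at *PLT3* was no longer seen.

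*BBM* and *PLT5* had regions of nearly equal length in all genotypes. At *BBM* the length was 6800 bp in *brm-1 clf-29* and in *clf-29*, and 7000 bp in *brm-1* and in Col. At *PLT5* it was 12600 bp in *brm-1 clf-29* and in *clf-29*, 12200 bp in *brm-1* and 12400 bp in Col, and in every genotype it ran on into the 3′-neighbouring gene *VIN3*, a regulator of vernalization. With gaps of up to 200 bp *BBM* had the same lengths, but the *PLT5* region was split inside the gene into parts of 6600 and 5400 bp in *brm-1 clf-29* and 2 parts of 6000 bp in *clf-29*, and was a single region of 12200 bp in *brm-1* and 9800 bp in Col. *PLT7* had a region of 1400 bp in every mutant and 1600 bp in Col, which covered 35.2% to 40.2% of the gene at its 5′ end, and which was 1000 bp long in *brm-1 clf-29* with the shorter gaps.

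As a share of the Col region, with gaps of up to 600 bp bridged, *brm-1 clf-29* kept 63.0% at *PLT1*, 66.7% at *PLT2*, 77.6% at *PLT3*, 87.5% at *PLT7*, 97.1% at *BBM* and 100% at *PLT5*. *clf-29* kept 60.9% at *PLT1*, 68.2% at *PLT2*, 69.4% at *PLT3*, 87.5% at *PLT7*, 97.1% at *BBM* and 100% at *PLT5*. *brm-1* kept at least 91.8% at the 5 genes other than *PLT7*, where it kept 87.5%. The median over all 5701 Col regions was 88.9% in *brm-1 clf-29*, 100% in *brm-1* and 85.7% in *clf-29*. Over the 498 Col regions of at least 8000 bp it was 78.9% in *brm-1 clf-29*, 100% in *brm-1* and 73.5% in *clf-29*. *PLT1*, *PLT2* and *PLT3* kept less than the median of those long regions. They stood at percentiles 26.5, 31.5 and 47.4 in *brm-1 clf-29* and at percentiles 31.7, 41.6 and 43.6 in *clf-29*. Each kept more than the lower quartile of the long regions, which was 62.4% in *brm-1 clf-29* and 57.2% in *clf-29*. The loss at these genes was thus within the range of other long regions. *PLT5* was at percentile 92.2 in *brm-1 clf-29* and percentile 94.6 in *clf-29*.

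**Figure D3:**
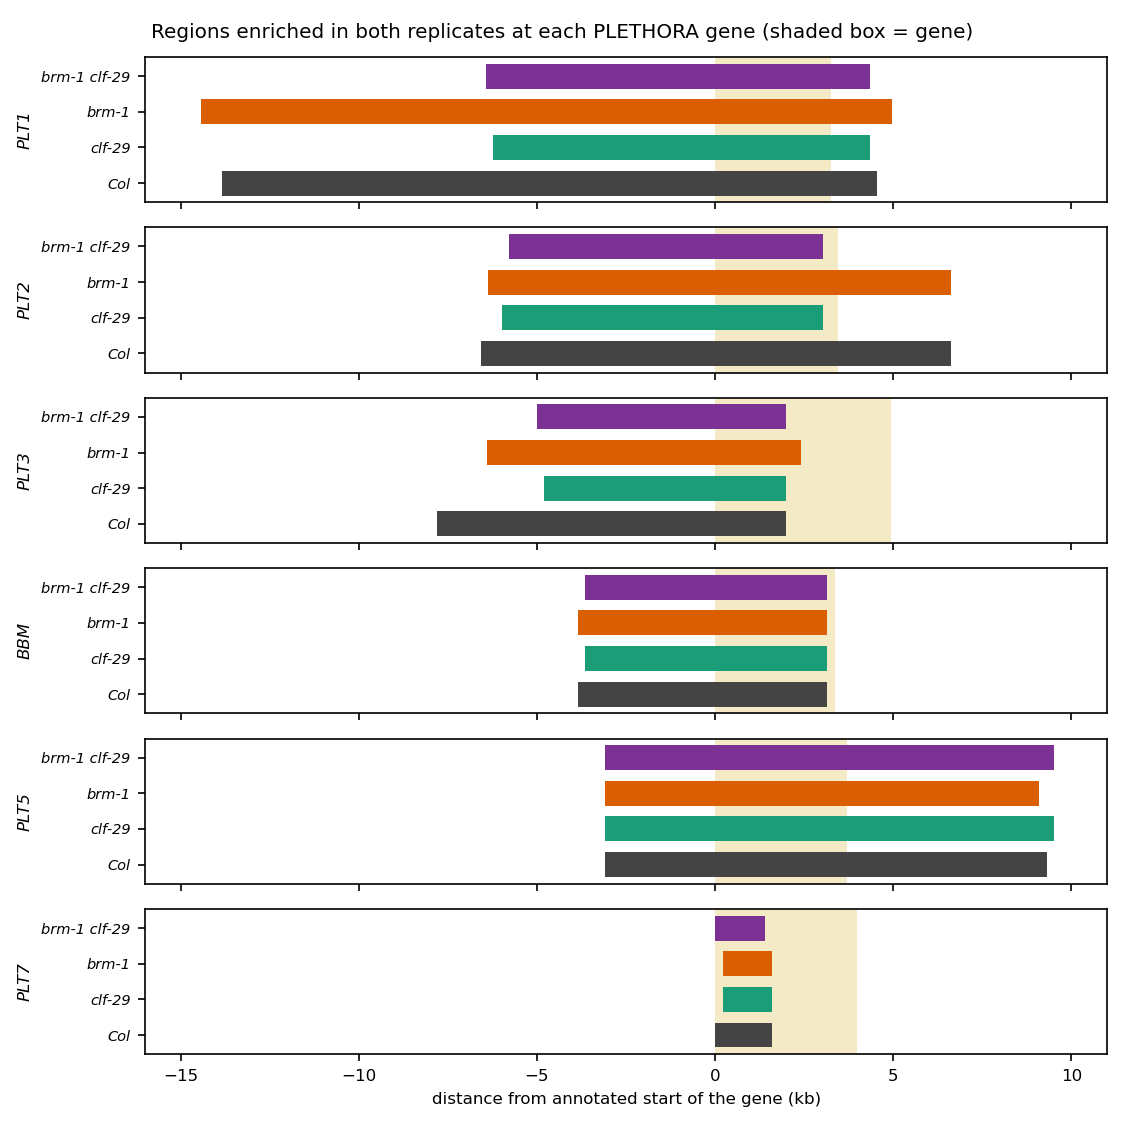
Extent of the enriched region shared by both replicates at each *PLETHORA* gene (horizontal bars, gaps of up to 600 bp bridged, x axis in kb from the annotated start of the gene in the direction of transcription) in *brm-1 clf-29*, both single mutants and Col, with the gene as a shaded box. The bars of *PLT1*, *PLT2* and *PLT3* are shorter in both genotypes with *clf-29* (10800 and 10600 bp at *PLT1*) than in Col (18400 bp), whereas those of *BBM* and *PLT5* differ by at most 200 bp from Col.

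The loci were then read in tiles of 500 bp, tested over all tiles of the genome with the same fit and the same call. Within 2000 bp of the genes 80 of 101 tiles had enough reads. In *brm-1* 0 were called higher and 0 lower than Col, although 30 had an unadjusted p under 0.05 and 71 were above 0. The backgrounds, over all tested tiles in Col regions, were 0.808% higher and 0.124% lower. In *clf-29* 6 were called higher and 7 lower, with backgrounds of 10.7% and 16.0%. In *brm-1 clf-29* 7 were called higher and 10 lower, with backgrounds of 10.8% and 13.6%. Over the shared regions together with the whole of each gene, an extent chosen after the data were seen, 136 tiles were tested, of which 8 were higher and 23 lower in *clf-29*, and 9 were higher and 24 lower in *brm-1 clf-29*. These counts were near or below the backgrounds, except that the lower tiles of *brm-1 clf-29* over this longer extent were somewhat above theirs. The tiles were not spread evenly over the 6 genes.

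*PLT1* had 12 lower tiles in *brm-1 clf-29* and 11 in *clf-29*, and none was higher. All but 1 in each genotype lay between -12193 and -6693 bp from the start of the gene. The tile centred at -8193 bp had 2.03 and 3.19 RPM in *brm-1 clf-29* seedlings, 26.7 and 28.2 RPM in *brm-1*, 3.08 and 4.26 RPM in *clf-29*, and 22.7 and 22.5 RPM in Col. Its log2 change was -2.73 in *brm-1 clf-29* (limma-adjusted p = 1.1e-07) and -2.35 in *clf-29* (4.2e-07), and 0.27 in *brm-1* (0.6). In both genotypes with *clf-29* every replicate of this tile was below every replicate of *brm-1* and Col, although *PLT1* itself had more reads than in Col. The 200 bp window with the largest difference between *clf-29* and Col is printed as the place where the upstream domain differed most. It lies at chr3:7292001-7292200 (TAIR10.1 sequence of RefSeq, plus strand), in the intergenic space upstream of *PLT1*, and had 1.36 RPM in *brm-1 clf-29* seedlings, 12.2 RPM in *brm-1*, 1.57 RPM in *clf-29* and 10.2 RPM in Col as means of the replicates. The promoter at chr3:7300194-7300493 (250 bp before to 50 bp after the annotated start, plus strand), which stayed inside the region in every genotype, is printed beside it.
PLT1 window of largest loss: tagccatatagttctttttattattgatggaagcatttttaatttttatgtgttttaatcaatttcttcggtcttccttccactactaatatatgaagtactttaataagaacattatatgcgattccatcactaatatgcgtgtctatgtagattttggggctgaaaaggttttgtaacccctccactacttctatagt
PLT1 promoter: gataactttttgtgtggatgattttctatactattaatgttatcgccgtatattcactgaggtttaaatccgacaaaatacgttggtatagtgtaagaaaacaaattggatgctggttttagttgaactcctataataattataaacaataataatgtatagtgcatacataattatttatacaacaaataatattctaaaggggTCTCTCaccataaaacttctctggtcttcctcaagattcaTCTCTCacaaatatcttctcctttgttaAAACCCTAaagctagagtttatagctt
Capitals mark matches to a telobox, AAACCCTA, or to a GAGA motif, GAGAGA, read on both strands so that the latter also appears as TCTCTC. The search also covered the RY motif, CATGCA. These motifs are bound by plant proteins known to recruit Polycomb complexes. The promoter held 1 telobox and 2 GAGA matches, and the window of largest loss held none of the 3 motifs, although the whole lost part of 7200 bp held 2 teloboxes, 2 GAGA matches and 4 RY matches. Of the promoters of 27444 protein-coding genes 6.22% held a telobox, 29.2% a GAGA match and 9.72% an RY match.

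*PLT2* had 9 lower tiles in both *brm-1 clf-29* and *clf-29*, of which 7 lay downstream of the gene and 2 upstream, at -6425 and -5925 bp. The tile centred at 4575 bp after the start had 2.03 and 1.60 RPM in *brm-1 clf-29* seedlings, 14.7 and 21.0 RPM in *brm-1*, 1.93 and 2.84 RPM in *clf-29*, and 14.8 and 16.2 RPM in Col. The log2 change was -2.56 in *brm-1 clf-29* (limma-adjusted p = 1.2e-06) and -2.30 in *clf-29* (4.1e-06). No replicate of the 2 genotypes with *clf-29* came near those of *brm-1* or Col. The window of largest loss lies in this stretch, at chr1:18981601-18981800 (plus strand), and had 0.97 RPM in *brm-1 clf-29* seedlings, 7.34 RPM in *brm-1*, 0.43 RPM in *clf-29* and 6.93 RPM in Col.
PLT2 window of largest loss: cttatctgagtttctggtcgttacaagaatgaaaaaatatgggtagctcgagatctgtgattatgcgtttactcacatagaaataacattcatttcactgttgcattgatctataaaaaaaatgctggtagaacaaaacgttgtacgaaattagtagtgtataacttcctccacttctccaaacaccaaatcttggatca
It is intergenic and held none of the 3 motifs. Towards the 5′ end of *PLT2* the mark was kept: the 1000 bp before the gene held 37.3% and 41.5% of the reads of the locus in *brm-1 clf-29*, 28.0% and 26.7% in *brm-1*, 36.8% and 39.7% in *clf-29*, and 27.4% and 26.9% in Col. The 1000 bp after it held 0.88% and 1.41% in *brm-1 clf-29*, 5.53% and 9.65% in *brm-1*, 1.04% and 0.55% in *clf-29*, and 5.88% and 6.14% in Col. The locus here is the gene with 1000 bp on each side.

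*PLT3* was the only gene with several tiles called higher in *brm-1 clf-29* and none in *clf-29*, although *clf-29* differed in the same direction at the same tiles. The tile at 350 bp had 49.1 and 56.8 RPM in *brm-1 clf-29* seedlings, 35.6 and 33.8 RPM in *brm-1*, 36.2 and 48.8 RPM in *clf-29*, and 23.8 and 20.9 RPM in Col. Its log2 change was 1.21 in *brm-1 clf-29* (limma-adjusted p = 4.1e-06), 0.89 in *clf-29* (0.00016) and 0.62 in *brm-1* (0.029). The tile at 850 bp changed by 1.17 and that at -150 bp by 1.11 in *brm-1 clf-29*. These tiles surround the annotated start at chr5:3315401, and the promoter at chr5:3315151-3315450 (plus strand) is printed because it lies under them and is rich in one motif.
PLT3 promoter: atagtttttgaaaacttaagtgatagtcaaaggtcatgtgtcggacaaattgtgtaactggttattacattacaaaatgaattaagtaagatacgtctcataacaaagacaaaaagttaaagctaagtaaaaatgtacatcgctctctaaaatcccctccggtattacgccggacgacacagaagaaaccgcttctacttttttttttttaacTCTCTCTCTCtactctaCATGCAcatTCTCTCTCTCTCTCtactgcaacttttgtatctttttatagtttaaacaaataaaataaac
Capitals mark 8 overlapping GAGA matches in 2 runs and the RY match between them. On its 5′ side the region of *PLT3* contains *MIR8184* in every genotype, and in Col alone the shared region reaches into *NET2C*. *clf-29* had lower tiles upstream of the gene at -6650 and -5650 bp, and 1 inside the gene at 2350 bp with a log2 change of -1.01. In *brm-1 clf-29* 1 upstream tile was called lower as well.

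*BBM* had 2 tiles called higher in *brm-1 clf-29* and 1 in *clf-29*, and none lower within its gene and region. The tile at 998 bp had 71.8 and 62.6 RPM in *brm-1 clf-29* seedlings, 47.0 and 43.6 RPM in *brm-1*, 73.9 and 75.3 RPM in *clf-29*, and 33.4 and 32.5 RPM in Col. The log2 change was 1.00 in *brm-1 clf-29* (limma-adjusted p = 3.2e-06), 1.16 in *clf-29* (4e-07) and 0.45 in *brm-1* (0.048). The genotypes with *clf-29* lay apart from both others. In these 2 genotypes the 200 bp window with most reads was the same, chr5:5744801-5745000, in a coding exon on the minus strand, with a mean of 31.1 RPM in each, whereas in Col the window with most reads had 15.2 RPM and lay 200 bp nearer the start.
BBM window with most reads in brm-1 clf-29 and clf-29: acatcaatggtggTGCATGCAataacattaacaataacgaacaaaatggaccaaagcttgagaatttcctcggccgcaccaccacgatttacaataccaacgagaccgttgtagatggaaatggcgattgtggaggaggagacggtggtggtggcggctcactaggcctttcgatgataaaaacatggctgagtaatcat
Capitals mark 2 overlapping RY matches, 1 on each strand. Of the windows with most reads of 6964 protein-coding genes marked in Col, 10.3% held an RY match, 21.0% a GAGA match and 4.22% a telobox.

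*PLT5* had 7 tiles called higher in *clf-29* and 3 in *brm-1 clf-29*, and none called lower. Of 5 tiles within 2000 bp downstream of the gene, 0 were above 0 in *clf-29* and 1 in *brm-1 clf-29*. Their median log2 changes were -0.47 and -0.23. The 200 bp window of largest loss, at 5203 bp, had 5.76 RPM in *brm-1 clf-29*, 15.0 RPM in *brm-1*, 5.02 RPM in *clf-29* and 10.3 RPM in Col. The tile at -1547 bp had 70.2 and 74.1 RPM in *brm-1 clf-29* seedlings, 39.5 and 44.3 RPM in *brm-1*, 68.9 and 79.5 RPM in *clf-29*, and 30.9 and 32.5 RPM in Col. The log2 change was 1.16 in *brm-1 clf-29* (limma-adjusted p = 6.4e-07), 1.20 in *clf-29* (3.1e-07) and 0.39 in *brm-1* (0.085). The tiles at 7953 and 8453 bp, over *VIN3*, changed by 1.12 and 1.04 in *clf-29*. The window with most reads in both Col and *clf-29* was chr5:23256201-23256400 on the minus strand, almost wholly in the coding part of the first exon, with a mean of 30.0 RPM in *clf-29* and 15.6 RPM in Col.
PLT5 window with most reads in clf-29 and Col: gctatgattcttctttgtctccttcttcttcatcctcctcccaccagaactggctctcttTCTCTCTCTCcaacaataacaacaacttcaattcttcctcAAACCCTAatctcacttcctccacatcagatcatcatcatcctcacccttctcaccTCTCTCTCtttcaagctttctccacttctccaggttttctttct
Capitals mark 1 telobox and 5 GAGA matches. *PLT7* had 0 tiles called in *clf-29* and 2 lower inside the gene in *brm-1 clf-29*, at 2158 and 3158 bp, downstream of its region, where no library had more than 5.68 RPM. A pair of further lower tiles, 1 beside *BBM* and 1 beside *PLT7*, lay outside the genes and regions in *brm-1 clf-29*.

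**Figure D4:**
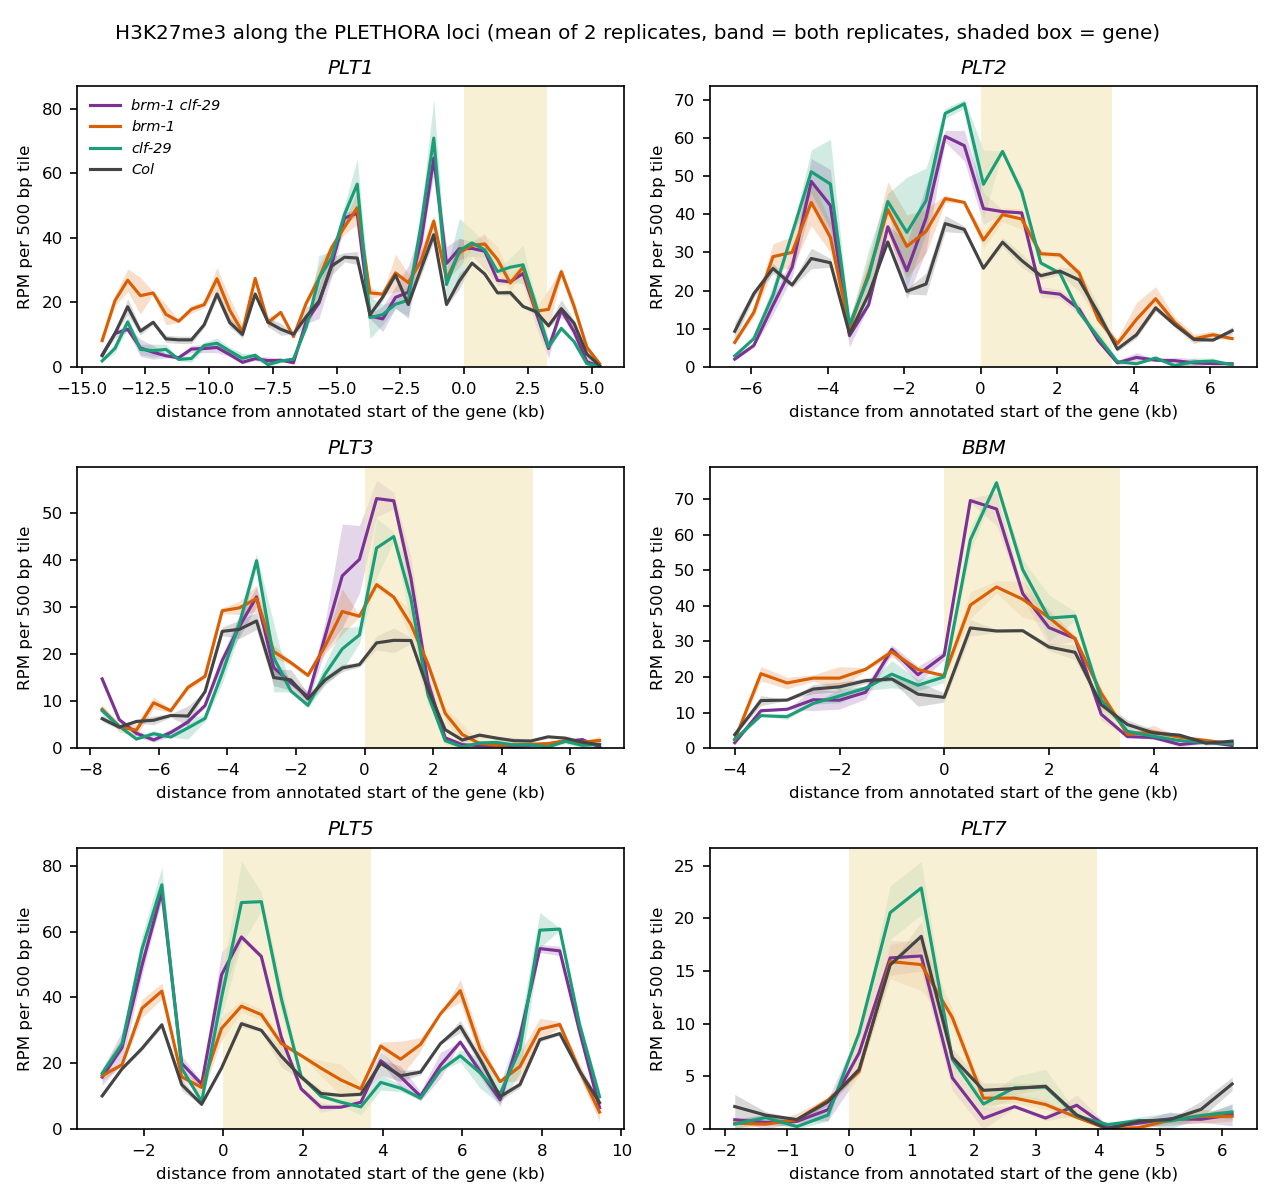
RPM per 500 bp tile (y axis) along each *PLETHORA* locus (x axis, kb from the annotated start in the direction of transcription), as the mean of 2 replicates with a band between them, for *brm-1 clf-29*, both single mutants and Col, with the gene as a shaded box. Upstream of *PLT1* and downstream of *PLT2* the lines of *brm-1 clf-29* and *clf-29* run near 0 where *brm-1* and Col keep a plateau (2.03 and 3.19 RPM in *brm-1 clf-29* against 22.7 and 22.5 RPM in Col at -8193 bp of *PLT1*), and at the 5′ part of *BBM* and *PLT5* the same 2 lines run highest.

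**Figure D5:**
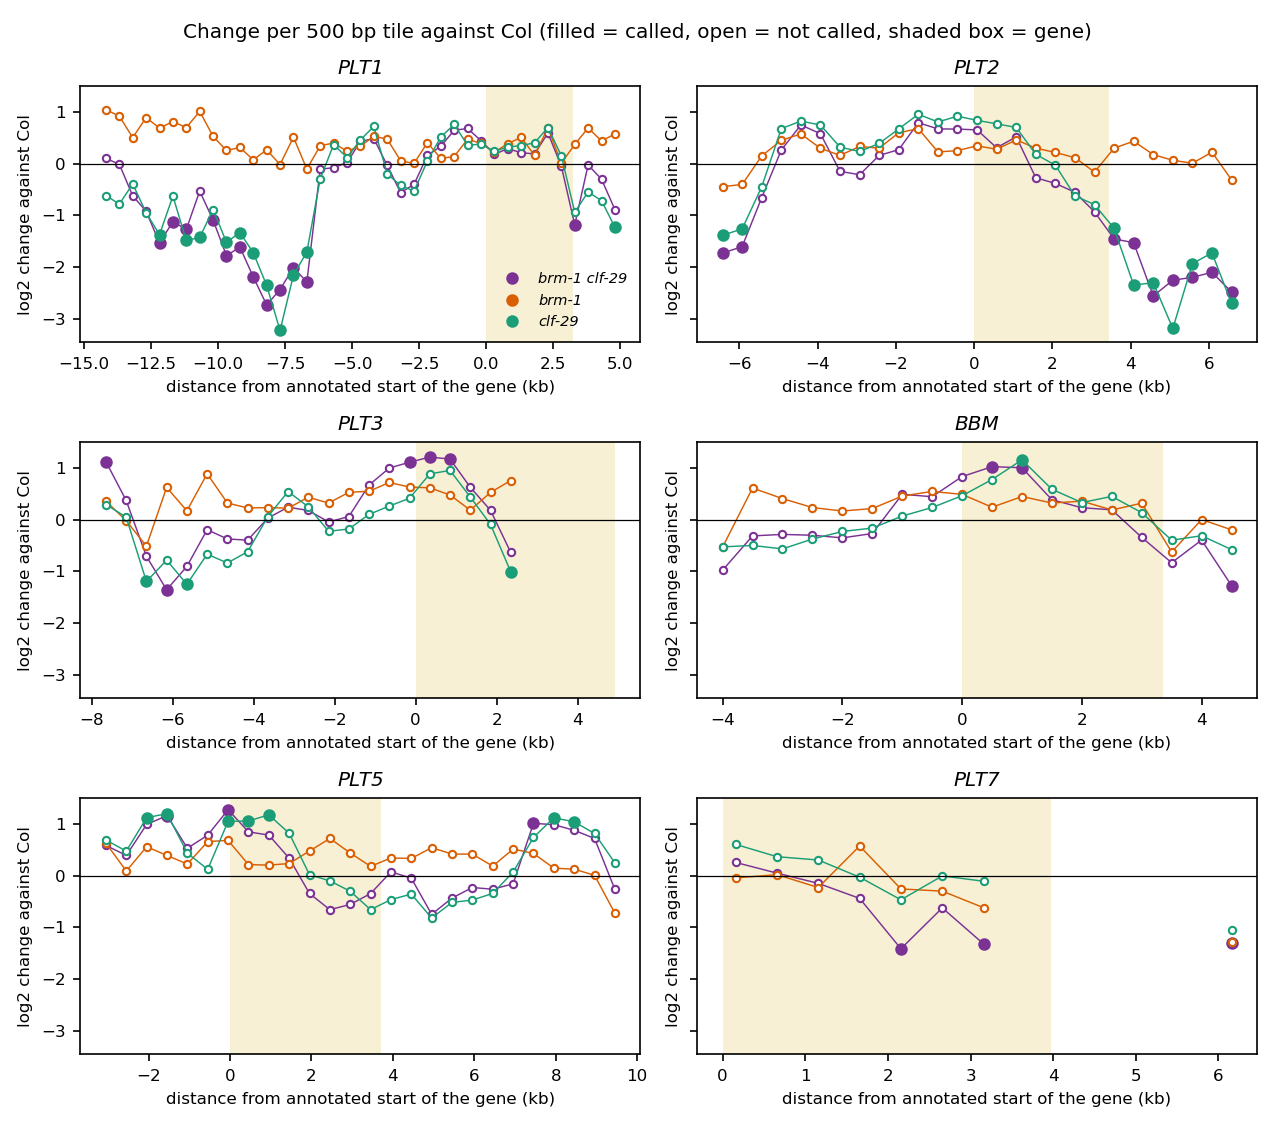
Log2 change of each tested 500 bp tile against Col (y axis) along the *PLETHORA* loci (x axis, kb from the annotated start) in *brm-1 clf-29*, *brm-1* and *clf-29*, with filled points for tiles called at more than 2-fold and adjusted p under 0.05, open points for the others and the gene as a shaded box. Filled points below 0 gather upstream of *PLT1* and downstream of *PLT2*, filled points above 0 lie at *PLT3*, *BBM* and *PLT5*, and *brm-1* has none.

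How far these tile calls depended on the scaling was checked with alternatives chosen after the data were seen. Of the 23 tiles lower in *clf-29*, 9 were still called lower with median-of-ratios factors, 23 with TMM over marked genes and 7 with the reads outside regions set equal, and all 23 stayed below 0 each time. Of the 24 lower in *brm-1 clf-29*, 11, 24 and 10 were still called under the same 3 scalings and all stayed below 0. The 8 higher in *clf-29* and the 9 higher in *brm-1 clf-29* were all called again with median-of-ratios factors and with the reads outside regions, and 0 were called with TMM over marked genes, where all were still above 0. Such scalings move all tiles of a comparison by about the same amount, and tiles chosen for a change above 2-fold had little room to change sign, so that only the number still called is informative.

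Within the genes, the share of reads in the first of 3 equal parts was larger in the genotypes with *clf-29* than in Col at 5 of 6 genes, a measure that needs no scaling between libraries. Of the reads of the locus, the first part of *PLT5* held 53.2% and 50.1% in *brm-1 clf-29*, 32.9% and 37.6% in *brm-1*, 54.1% and 59.9% in *clf-29*, and 38.7% and 37.7% in Col. The first part of *BBM* held 45.8% and 42.1% in *brm-1 clf-29*, 31.7% and 33.9% in *brm-1*, 41.2% and 37.5% in *clf-29*, and 30.2% and 32.4% in Col. Both genotypes with *clf-29* lay above *brm-1* and Col in every replicate at both genes. *PLT3*, *PLT7* and *PLT2* had the same order, with 62.4%, 69.3% and 33.5% as means in *brm-1 clf-29*, 68.3%, 68.8% and 35.1% in *clf-29*, and 54.3%, 57.9% and 27.3% in Col. *PLT1* did not, with means of 29.1% in *brm-1 clf-29*, 27.3% in *brm-1*, 29.5% in *clf-29* and 29.5% in Col. The input libraries held between 15.5% and 30.4% in the first part of any of the genes.

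A difference of this sign was common among marked genes. Over 2038 genes of at least 2000 bp marked in Col, the median difference from Col in the share of the first part was 3.23 percentage points in *brm-1 clf-29*, 0.58 in *brm-1* and 3.24 in *clf-29*. *PLT5* differed by 13.4 points in *brm-1 clf-29* and 18.8 points in *clf-29*, at percentiles 90.7 and 96.6 of those genes, and *PLT3* differed by 8.16 points in *brm-1 clf-29* and 14.0 points in *clf-29*, at percentiles 74.98 and 90.0. *BBM* differed by 12.6 points in *brm-1 clf-29* and 7.97 points in *clf-29*, at percentiles 89.0 and 72.8. In *brm-1* the differences ran from -2.97 points at *PLT5* to 1.52 at *PLT2*. These are descriptions and were not tested. In whole seedlings a smaller share of cells carrying the mark and less mark per cell cannot be told apart.

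The motifs were also counted over the parts of the Col regions that *clf-29* kept and lost, as a description. GAGA matches occurred 1.52 times per kb in the kept and 0.28 times in the lost part at *PLT1*, 2.11 and 0.48 times at *PLT2*, and 2.35 and 0.33 times at *PLT3*. RY matches occurred 0.63 and 0.56 times at *PLT1*, 1.56 and 0.24 times at *PLT2*, and 1.03 and 0.33 times at *PLT3*. Teloboxes numbered 5 in the kept and 2 in the lost part at *PLT1*, 2 and 0 at *PLT2*, and 1 and 0 at *PLT3*. Over all Col regions GAGA matches occurred 1.46 times per kb in the kept and 1.22 times in the lost part. RY matches occurred 0.86 and 0.53 times there, and teloboxes 0.19 and 0.14 times. The regions of *PLT5*, of which nothing was lost in the bridged call, and of *BBM* held 3.55 and 2.06 GAGA matches per kb in the kept part. Kept and lost parts are those of the regions bridged over up to 600 bp, and their base composition was not matched.

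The remaining genes of the same *AINTEGUMENTA-LIKE* group were *ANT*, a regulator of organ growth, and AT1G72570, which the annotation leaves without a symbol. AT1G72570 had 280.5 and 258 RPM in *brm-1 clf-29* seedlings, 162 and 176 RPM in *brm-1*, 310.3 and 309 RPM in *clf-29*, and 139 and 144 RPM in Col. It was the one gene of the group called against Col, with a log2 change of 1.12 in *clf-29* (limma-adjusted p = 1.23e-10), and it changed by 0.92 in *brm-1 clf-29* (2.53e-09). *ANT* had log2 changes of 0.60 in *brm-1 clf-29* (limma-adjusted p = 0.000221), 0.24 in *brm-1* (0.0841) and 0.58 in *clf-29* (0.000385).

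A list of 18 other regulators of the root stem cell niche and root cap was read by the same call. In *clf-29* 4 were higher and 4 lower than Col, in *brm-1 clf-29* 2 were higher and 3 lower, and in *brm-1* 0 were higher and 5 lower. Of all tested genes 38.1% were called in either direction in *clf-29*, 45.2% in *brm-1 clf-29* and 38.8% in *brm-1*. With both directions pooled, the 8, 5 and 5 of 18 were near or below this background, but most of its calls were lower than Col. The pooled counts therefore say little about the genes called higher, for which no 2-fold share was taken. By the adjusted limma p alone 11, 11 and 9 of 18 were higher and 4, 3 and 5 lower in the same genotypes. Of all tested genes 14.1%, 15.0% and 9.61% were higher by that rule, and of the marked ones 43.2%, 45.0% and 29.5%. Those higher in *clf-29* were *SHR* (log2 change 1.33) and *MGP* (1.15), which act in ground tissue patterning, *WOX5* (1.31), which marks the quiescent centre, and *BRN1* (1.15), a root cap regulator. *SHR* (1.30) and *WOX5* (1.1) were the ones called in *brm-1 clf-29*. *SHR* had 326 and 280 RPM in *brm-1 clf-29* seedlings, 180 and 171 RPM in *brm-1*, 322 and 295 RPM in *clf-29*, and 125 and 119 RPM in Col. The lower ones were genes with few reads in every library, namely *TPST*, *ACR4*, *MP* and *BDL*, with *SCR* in *brm-1* only, and none of these had more than 21.1 RPM in any library. Against *brm-1*, *SCR* and *TPST* were called higher in *brm-1 clf-29*, also at few reads, against a background of 6.58%. Against *clf-29* 0 of 18 were called in *brm-1 clf-29*, with 3 at an unadjusted limma p under 0.05. The interaction had an adjusted p under 0.05 below 0 for 7 and above 0 for 1 of the 18, and it was below 0 with that p for 2.62% of all tested genes and 8.11% of the marked ones. These shares, too, are those with RPM.

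Of the neighbours of the 6 genes, 4 that reach into the shared region of the member beside them in at least 1 genotype are given here. AT5G57400, upstream of *PLT5*, overlapped a separate shared region in every genotype. AT3G20850, next to *PLT1*, had 27.6 and 30.3 RPM in *brm-1 clf-29* seedlings, 48.1 and 50.7 RPM in *brm-1*, 17.7 and 20.8 RPM in *clf-29*, and 29 and 36.4 RPM in Col. Its log2 change was -0.73 in *clf-29*, against 0.35 at *PLT1* itself. *UCNL*, reached by the *PLT1* region in *brm-1*, had 8.52 and 7.98 RPM in *brm-1 clf-29* seedlings, 13.9 and 12.0 RPM in *brm-1*, 5.39 and 2.84 RPM in *clf-29*, and 8.76 and 6.95 RPM in Col, with log2 changes of 0.66 in *brm-1* (limma-adjusted p = 0.0891) and -0.83 in *clf-29* (0.0354). *NET2C* was reached by the shared *PLT3* region in Col only, but it overlapped another shared region in *brm-1* and in *brm-1 clf-29*, and none in *clf-29*. It was called higher in *brm-1 clf-29*, with a log2 change of 1.08. *VIN3*, beside *PLT5*, had 174 and 175 RPM in *brm-1 clf-29* seedlings, 109 and 104 RPM in *brm-1*, 179 and 198 RPM in *clf-29*, and 99.6 and 97.0 RPM in Col, and changed by 0.93 in *clf-29* against 0.76 at *PLT5*. Neighbours within one domain are not independent of the member beside them.

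The genes most alike each member across the 8 ChIP libraries were taken from 3743 marked genes with enough reads, by Pearson's r of log2(RPM + 1). For *BBM* this was *EIR1* (r = 0.997), for *PLT3* AT1G14730 (r = 0.99), for *PLT5* AT1G05310 (r = 0.98), for *PLT2* AT2G36560 (r = 0.97), for *PLT1* AT4G11750 (r = 0.96) and for *PLT7* *PERK11* (r = 0.91). Among the members, *BBM* and *PLT5* were most alike (r = 0.93), but 36.5% of the compared genes were more like *BBM* than *PLT5* was, and 3.47% more like *PLT5* than *BBM* was. *PLT1* and *PLT2* were each other's nearest (r = 0.74), with 10.3% of genes closer to *PLT1* and 3.07% closer to *PLT2*. The 8 points share the depth and the background of their libraries, and the offset between Col and the mutants described above enters every r.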

How the data were processed

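The deposited files hold mapped reads with their position and strand, and no counts. The labels name a Genome Analyzer IIx as the sequencer, whereas the read names give a HiSeq. The study's methods name both types of instrument. According to the submitters' processing notes the authors mapped them with Bowtie 0.12.7 to TAIR10, and SICER 1.1 is named there too. Reads were kept once per position and strand, their 5′ ends were shifted by 75 bp, and reads per gene were expressed per 1000000 kept reads (RPM). Genes shorter than 1000 bp were widened to that length. The test was limma 3.58.1 (R 4.3.3, lmFit and eBayes with trend) on log2(RPM + 1) of all 8 ChIP libraries, fitted to genes that had 10 or more reads in 2 or more of them. The pseudocount of 1 understates changes of genes with few reads. A count model was not used because the files hold reads and no count table. All p-values in the text come from limma, with Benjamini-Hochberg adjustment unless called unadjusted. Regions, modelled on SICER, were built from 200 bp windows (Poisson p under 0.2) bridged over up to 600 bp and set against the input at an adjusted p under 0.01. TAIR10.1 of RefSeq, whose chromosome lengths match the files, gave genes and sequences. The scripts were tested on simulated data.

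The genes and lists were chosen with earlier results of these data known. All 6 members were named, with *ANT* and AT1G72570, those of the 18 root regulators that were called, the neighbours, the most alike gene and the controls. The alternatives covered redundant reads, scaling, pseudocounts, filters, flanks, thinning, the first 1000 bp, the input ratio, the region settings and each replicate left out. For tiles, the scalings, the left-out replicates and the whole region were added after seeing the data.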

Additional observations from a re-analysis of the deposited data

Results flagged for a closer look

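The effect of *brm-1* differed between the *clf-29* background and plants with CLF at 4 of the genes, by the interaction term of the limma fit with an adjusted p under 0.05. At *PLT5* the log2 change was -0.29 in *brm-1 clf-29* against *clf-29* and 0.35 in *brm-1* against Col, a difference of -0.65 (adjusted p = 0.0119). At *PLT2* the values were -0.29 and 0.24, a difference of -0.54 (adjusted p = 0.0167). At *BBM* they were -0.07 and 0.33, a difference of -0.40 (adjusted p = 0.0289). At *PLT1* they were -0.11 and 0.36, a difference of -0.47 (adjusted p = 0.0306). All 4 lay below the median of the genes marked in Col, which was -0.25, and below that of all tested genes, which was 0.59. The Col libraries, whose share of reads outside regions stood apart from that of the mutants, enter each of these differences, and the part of that offset was not tested.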

How the results depend on the processing

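The gene calls depended most on the scaling. With median-of-ratios factors 5 genes were called higher in *brm-1*, 6 in *clf-29* and 4 in *brm-1 clf-29* than in Col, and with the reads outside all regions 6, 6 and 5, against 0 with RPM. Without the 2-fold rule the counts were 5, 5 and 4, and 2 against *brm-1*. Over the first 1000 bp, 1 gene was called in *clf-29* and 2 in *brm-1 clf-29*. The 4 interaction calls became 6 with median-of-ratios factors, 6 with the reads outside regions, 1 with TMM over genes marked in Col, 2 with the ratio to input, 0 over the first 1000 bp and 0 with an adjusted p under 0.01 and the 2-fold rule, and ranged from 0 to 4 with a replicate left out. With the replicate number as a block they were 4, and the block changed no other count of gene calls. Same-numbered libraries shared only a number (correlations of -0.011 to 0.105). Tiles higher in *brm-1* were 64 with median-of-ratios factors and 69 with the reads outside regions. Tiles higher in *clf-29* were 3 at 1000 bp per tile, 0 with TMM, 35 and 43 with the other factors, and 4 to 11 with a replicate left out, and those lower were 23 over the whole region, 12, 3 and 3, and 4 to 8. In *brm-1 clf-29* the higher tiles were 3, 0, 38 and 45, and 6 to 9, and the lower tiles 24 over the whole region, 3 and 3, and 4 to 10 (4 without Col replicate 1, 5 without Col replicate 2). The cause was not tested. The sign of single genes turned as follows. For *PLT7* in *brm-1* against Col the log2 change was 0.0073 with all reads, 0.84 with median-of-ratios and 1.05 with the reads outside regions, and -0.20 to 0.087 with a replicate left out. In *clf-29* against Col, TMM gave -0.015 at *PLT2* and -0.050 at *PLT7*. In *brm-1 clf-29* against Col, TMM gave -0.079 at *PLT1* and -0.29 at *PLT2*, a left-out replicate -0.013 to 0.060 at *PLT2*, and *PLT7* had 0.63 with median-of-ratios, 0.88 with the reads outside regions and 0.0029 over the first 1000 bp. Against *brm-1*, the ratio to input gave 0.038 at *PLT1*, 0.0091 at *PLT2*, -0.027 at *BBM* and -0.10 at *PLT5*, the first 1000 bp gave 0.16 at *PLT2* and 0.11 at *PLT7*, and a left-out replicate -0.23 to 0.00050 at *PLT1*. Against *clf-29*, *BBM* had 0.014 with median-of-ratios, 0.040 with the reads outside regions and 0.17 over the first 1000 bp, and *PLT1* -0.23 to 0.0028 with a replicate left out. The interaction at *PLT3* was 0.11 with TMM and 0.00027 in libraries thinned to 2112103 reads.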
